A study of Mus musculus with 12 samples.

Results

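The comparison described here set L_IR against IR in mouse bone marrow cells sorted as hematopoietic stem cells (HSCs), and used 6 of the 12 libraries of the series, 3 of each group. The members were set by their titles, with earlier results of these data known. All 12 libraries came from wild-type mice, of the C57BL/6 strain per the study's methods. IR mice received whole-body ionizing radiation from a 60Co gamma source, and L_IR mice received the treatment labelled L together with irradiation, both with cells collected 3 days after exposure. The remaining libraries were unirradiated controls (Ctrl, n = 3) and irradiated mice with the treatment labelled Ab (Ab_IR, n = 3). The labels do not spell out L or Ab, and no group received L without irradiation, so L_IR against IR is a difference between irradiated groups and not the action of L on its own. The sort took lineage-negative cells with Sca-1 and c-Kit and without Flt3 and CD34. Whether the 3 libraries of a group came from separate mice is not stated, so the p-values below measure the spread between libraries, which may be technical.

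HSCs sit at the top of blood formation and give rise to progenitors that commit step by step to erythroid, megakaryocytic, granulocytic, monocytic and lymphoid fates. Granule proteins mark this commitment closely, because neutrophil precursors make the primary granule enzymes early and the secondary granule proteins late, whereas eosinophil precursors make their own basic proteins and ribonucleases. Ionizing radiation depletes dividing progenitors, and interferon signaling, through a promoter element bound by the STAT and IRF proteins, is among the best known inflammatory inputs to stem and progenitor cells.

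Values were read as FPKM, which divide fragments by gene length and by library size, and the depth behind them is unknown. Sums of FPKM were 371036 to 374497 in IR and 397049 to 397428 in L_IR. Immunoglobulin transcripts made up 17.2% to 18% of the sum in IR and 21.9% to 22.6% in L_IR. The sort markers did not all match the gate. c-Kit transcript (Kit), which the gate requires, was at 6.87 ± 0.155 FPKM in IR and 17.9 ± 0.0961 FPKM in L_IR. CD34 and Flt3, which it excludes, were at 3.78 ± 0.125 and 1.08 ± 0.131 FPKM in IR and at 15.8 ± 0.25 and 5.87 ± 0.237 FPKM in L_IR. Ly6a, which encodes Sca-1, was at 53.7 to 61.5 FPKM in IR and 45.4 to 45.8 FPKM in L_IR. Of the lineage genes, Cd3e was at 0.76 to 0.81 FPKM in IR and 2.03 to 2.37 FPKM in L_IR, and Itgam, which encodes Mac-1, at 51.3 to 53 and 23.2 to 26.4 FPKM. Ly6g, which encodes one of the Gr-1 antigens, was at 4.77 to 7.33 and 0.83 to 1.73 FPKM, and B220 and Ter-119 were not checked. The cells are therefore called sorted cells below. In bulk RNA, fewer cells of a type and less RNA per cell cannot be told apart, and this holds for every lineage gene described.

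The IR and L_IR libraries also differed in heart muscle transcripts. Nppa, which encodes the atrial natriuretic peptide, was listed at 51.2, 63.9 and 60.7 FPKM in the 3 IR libraries and at 0 in all 3 L_IR libraries. Ctrl replicates 2 and 3 (51.8 and 62.5 FPKM) resembled IR, while Ctrl replicate 1 and the Ab_IR libraries (0 to 0.26 FPKM) resembled L_IR. Of 92 heart muscle genes found in the files, 37 were tested and 27 were lower in L_IR, and all of them were set aside from the counts below. Another 6 genes shared the pattern of Nppa and are still in the counts of lower genes, namely Ccn2, Eef1a2, Gm8543, Mgp, Mybphl and Pdk4. Apart from heart genes, 6 genes, Rpl29 among them, were at least 3-fold higher in every Ab_IR and L_IR library than in any Ctrl or IR library. The split and the group cannot be told apart between IR and L_IR except through Ctrl replicate 1, a library with 44.1% of gene rows at 0 against 24.7% to 27.3% in the others.

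How gene expression of irradiated cells differed with L was tested with limma on log2(FPKM + 1), over 12126 genes that reached 1 FPKM in 3 or more of the 6 libraries. A gene was called higher or lower at a Benjamini-Hochberg adjusted p under 0.05 together with a log2 fold change beyond 1 in size, and fold changes on this scale understate those of low genes. In L_IR, 497 genes were higher (4.1% of those tested) and 232 lower (1.91%). Without the fold change threshold, 4952 genes were higher (40.8%) and 3136 lower (25.9%), and these 4 shares are the background for the counts of every list in this comparison. A gene that reaches 1 FPKM only in the 3 L_IR libraries passes the filter but can only come out higher. The reverse holds for the 3 IR libraries. Leaving out 1 L_IR library and filtering again gave 386 to 397 higher genes, against 486 to 500 on the unchanged set. Leaving out 1 IR library gave 182 to 188 lower genes, against 232 to 236. List counts carry the same limit. The median log2 fold change over all tested genes was 0.07. Numbers in brackets after a gene are log2 fold changes, positive where L_IR was higher, with their standard error (SE) and adjusted p where given. With quantile normalization, 371 genes were higher and 278 lower, so the share of higher genes among the calls moved from 68.2% to 57.2%. Immunoglobulin genes made up 28 of the higher and 11 of the lower genes.

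**Figure D1:**
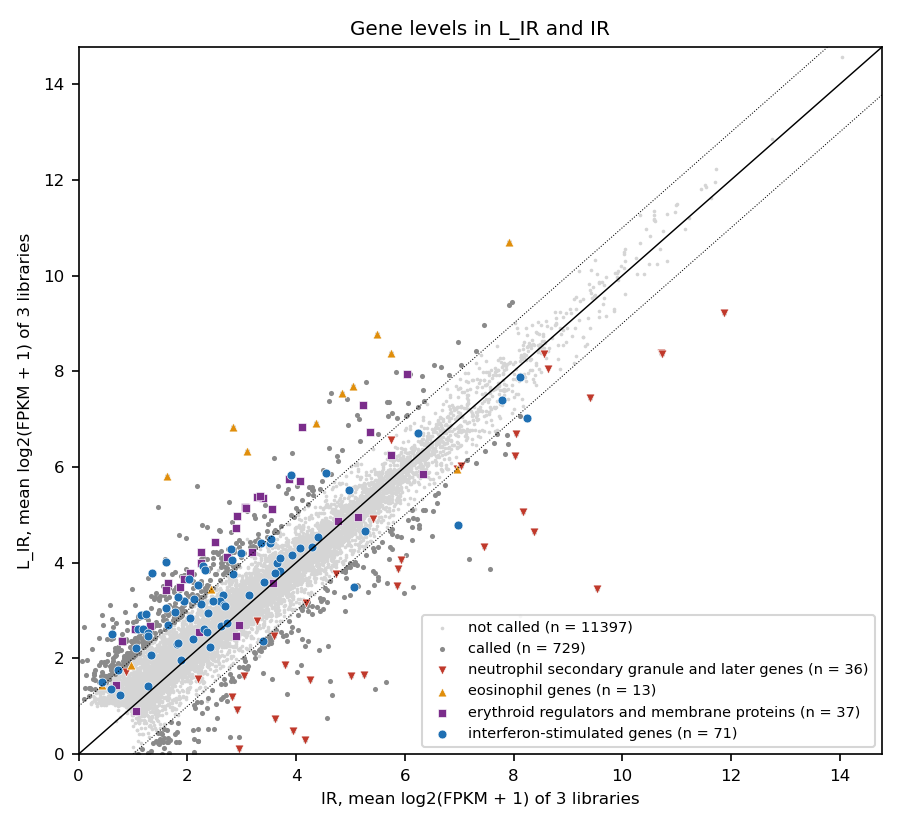
Mean log2(FPKM + 1) of the 3 L_IR libraries against that of the 3 IR libraries, 1 point per tested gene, heart muscle genes left out; the solid line marks equal levels and the dotted lines a difference of 1 in either direction. Most of the 36 late neutrophil genes lie below the lower dotted line, and 11 of the 13 eosinophil genes and 27 of the 37 erythroid genes lie above the upper one.

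Late neutrophil genes had the lowest median of the 39 lists. Of 36 tested genes of secondary and later granules and of mature neutrophils, 27 were called lower in L_IR, none was called higher, and their median log2 fold change was -1.95. Summed over the 37 genes of the list in the files, the level was 11129.6 to 11635 FPKM in IR, 2574 to 2647 FPKM in L_IR and 4319 to 6261 FPKM in Ctrl. Chil3, a chitinase-like lectin of neutrophils and alternatively activated macrophages (chromosome 3, 106147554 to 106167564, minus strand), was at 729.7, 738 and 753 FPKM in IR and at 9.49, 10.6 and 9.86 FPKM in L_IR. Its level was thus 74.1-fold lower on average, the largest fall of any gene that met the naming rule (log2 fold change -6.08, SE 0.0393, adjusted p 9.75e-10). No L_IR library came near the lowest IR library, and the Ctrl libraries lay between, at 48.6 to 59 FPKM. Lcn2, the siderophore-binding lipocalin of secondary granules (chromosome 2, 32384633 to 32388252, minus strand), was at 331, 333 and 330.5 FPKM in IR and at 23.9, 24.5 and 23.9 FPKM in L_IR (log2 fold change -3.73, SE 0.0208, adjusted p 9.75e-10). For Mmp8, the neutrophil collagenase (chromosome 9, 7558456 to 7568485, plus strand), the values were 37.2, 36.9 and 36.7 FPKM in IR and 2.17, 1.99 and 2.23 FPKM in L_IR (-3.60, SE 0.0381, adjusted p 7.03e-09). In both, the 3 libraries of a group nearly coincided and the gap between groups was many times their spread.

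Further late granule and surface genes fell. Mmp9, the gelatinase of tertiary granules, fell from 31.4 ± 1.15 to 2.1 ± 0.142 FPKM (SD, n = 3, log2 fold change -3.39), and Cd177, a neutrophil surface protein, from 175 ± 4.67 to 19.1 ± 1.03 FPKM (-3.13). Ltf, which encodes lactoferrin, was at 287 to 290.4 FPKM in IR and 31.6 to 33.2 FPKM in L_IR (-3.12, adjusted p 2.23e-09). Cxcr2, the receptor through which mature neutrophils leave the marrow, fell from 18 ± 0.745 to 1.94 ± 0.121 FPKM (-2.69, SE 0.0477, adjusted p 5.87e-08). Stfa2, a stefin, was at 15 to 18.7 FPKM in IR and 0 to 0.42 FPKM in L_IR, and with its near-identical neighbors it shares reads, so its single value is uncertain. The same holds for Cstdc5, a stefin-like gene that fell from 22.9 ± 1.44 to 0.70 ± 0.131 FPKM and was not found in the annotation used for positions. Not every member moved this way, since Il1b, a cytokine, and Retnlg, a resistin-like protein, both named after their values were seen, were higher by 0.86 and 0.80 without passing the fold change threshold.

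Of 15 tested genes listed as primary granule genes, which mark early neutrophil development, 2 were called lower, against 1.91% of all genes, and none higher. Their median was -0.42, and 10 were lower at an adjusted p under 0.05, against 25.9% of all genes. Mpo, the myeloperoxidase gene and among the most abundant of these transcripts, was at 3249, 3156 and 3131 FPKM in IR and 3173, 3046 and 3243 FPKM in L_IR, and the groups overlapped (-0.01, adjusted p 0.776). Elane, which encodes neutrophil elastase, was lower, with a log2 fold change of -0.19 (adjusted p 0.00103), well short of the threshold for a call. The 2 called lower were a receptor and an inhibitor, so no granule enzyme of the list was called. They were Clec5a, a myeloid lectin receptor, at 63.4 to 65.1 FPKM in IR and 14.6 to 18.3 FPKM in L_IR, and Serpinb1a, an elastase inhibitor (-1.06, and -0.98 under a term for the heart split).

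Among the genes with the largest falls, several outside the granule lists are also known from neutrophils. Il1r2, the decoy receptor for interleukin 1 (chromosome 1, 40074079 to 40125231, plus strand), was at 43.6, 41.5 and 43.3 FPKM in IR and 1.57, 1.6 and 1.49 FPKM in L_IR (-4.10, SE 0.0355, adjusted p 3.09e-09). Ifitm6, a member of the interferon-induced transmembrane family, fell from 188 ± 6.51 to 13.7 ± 0.495 FPKM (-3.69). Asprv1, an aspartic protease, fell from 24.3 ± 0.749 to 1.36 ± 0.179 FPKM (-3.43). Lipg, which encodes endothelial lipase, stood apart from the other genes of cholesterol synthesis and uptake. It was at 50.6, 49.6 and 48.8 FPKM in IR and 1.84, 1.9 and 1.82 FPKM in L_IR (-4.15, SE 0.0306, adjusted p 1.78e-09), whereas none of the other 31 tested genes of that list was called and their list median was -0.08. In Il1r2, Ifitm6, Asprv1 and Lipg, the Ctrl and Ab_IR libraries were also below every IR library. These differences thus set IR apart from all other groups.

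**Figure D2:**
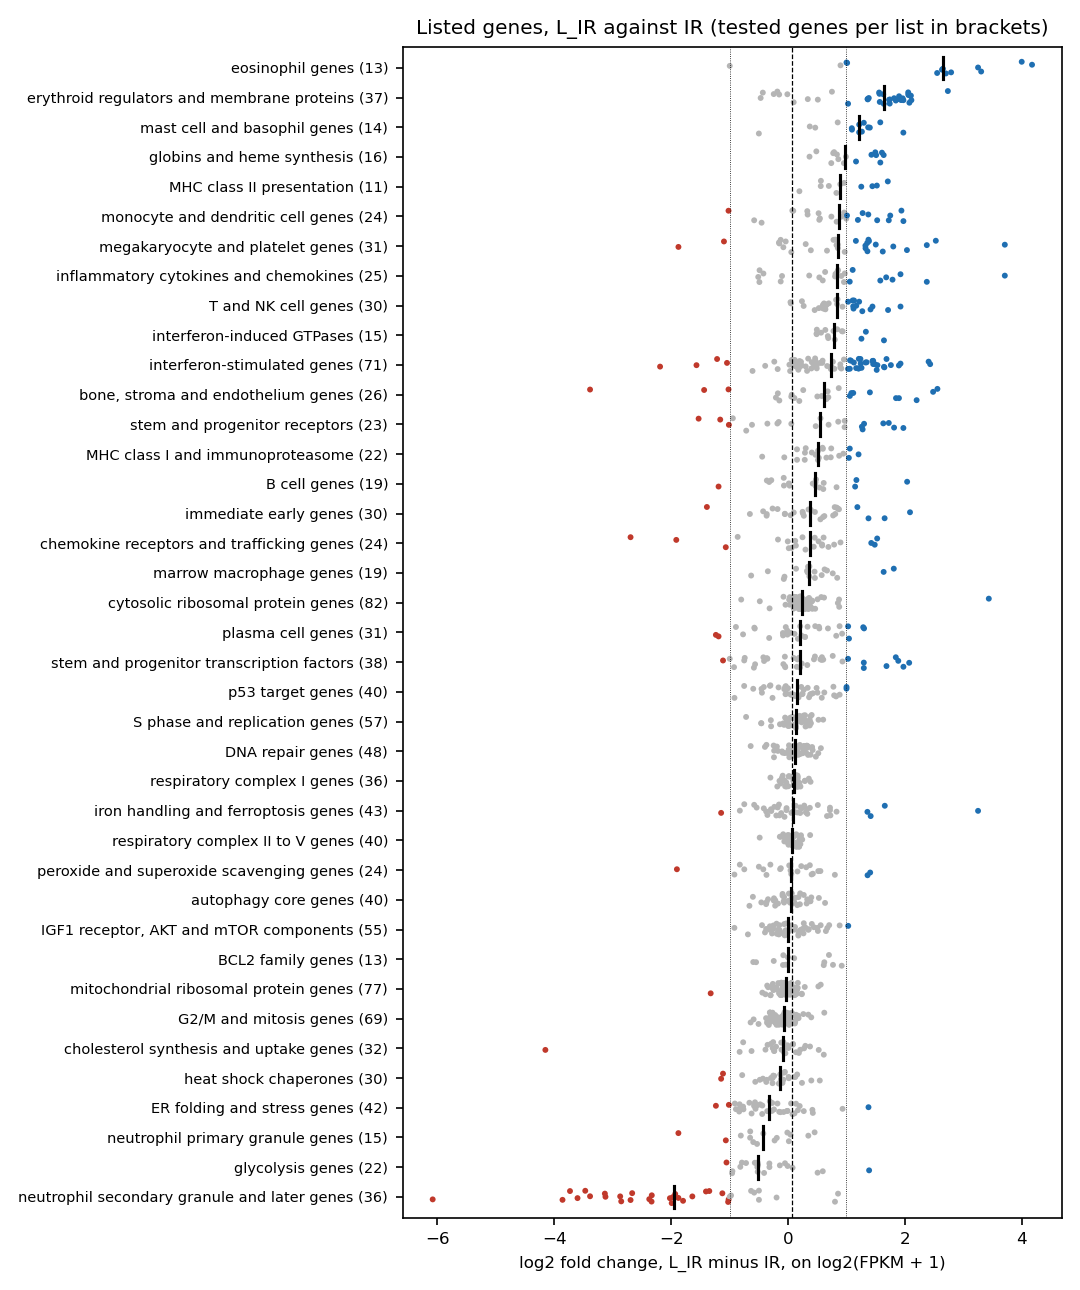
Log2 fold changes of L_IR minus IR on log2(FPKM + 1) for every tested gene of 39 lists, 1 point per gene, blue where called higher, red where called lower and gray where not called; black ticks are list medians, the dashed line is the median of all tested genes (0.07) and dotted lines mark -1 and 1. The late neutrophil list lies lowest with a median of -1.95 and the eosinophil list highest with 2.65, while cell cycle, repair and respiratory chain genes stay between the dotted lines.

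Eosinophil genes had the highest median of the 39 lists. Of 13 tested, 11 were called higher and none lower, and the median log2 fold change was 2.65. Prg2, the major basic protein of eosinophil granules (chromosome 2, 84980461 to 84983632, plus strand), was at 236, 238 and 246 FPKM in IR and at 1669, 1656 and 1676 FPKM in L_IR, a 6.94-fold difference (2.79, SE 0.024, adjusted p 3.09e-09). Ear2, an eosinophil-associated ribonuclease (chromosome 14, 44102654 to 44103534, plus strand), was at 43.7, 43.5 and 44.1 FPKM in IR and 447, 434 and 442 FPKM in L_IR (3.30, SE 0.0211, adjusted p 9.75e-10). The groups were far apart in both genes, and the L_IR libraries stayed below the lowest Ctrl library, at 2673 and 631 FPKM. Ear10 had the largest rise (4.17, SE 0.0584, adjusted p 2.47e-08), with 1.93 to 2.38 FPKM in IR and 53.1 to 56.4 FPKM in L_IR, followed by the pseudogene Ear-ps2 (4.0) and, lower, Ear6 (2.70). These copies are near-identical, so reads can be split between them and their single values are uncertain. Alox15, a lipoxygenase abundant in eosinophils, rose from 7.5 ± 0.0503 to 79.9 ± 2.43 FPKM (3.25, SE 0.0296, adjusted p 3.75e-09), and Epx, the eosinophil peroxidase, was at 51.1 to 53.8 FPKM in IR and 330.4 to 337 FPKM in L_IR (2.65). Cebpe, a transcription factor shared with late neutrophils, was the exception, with -0.997 and no call. With any 1 library left out, 9 to 12 genes of the list were called higher and 0 to 1 lower.

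Mast cell and basophil genes rose too, with 10 of 14 tested genes called higher, none lower and a median of 1.22. Mcpt8, a basophil protease, was at 53.8, 52.8 and 53.5 FPKM in IR and at 133, 146 and 139.9 FPKM in L_IR (1.37, SE 0.036, adjusted p 2.90e-07). Ms4a2 and Fcer1a, the beta and alpha chains of the high-affinity IgE receptor, rose by 1.97 and 1.40. The Fcer1a libraries varied more, with 4.49, 6.96 and 5.83 FPKM in IR and 15.9, 17.1 and 16.9 FPKM in L_IR, yet they did not overlap. Il6, a cytokine that activated mast cells release, rose from 1.01 ± 0.135 to 5.0 ± 0.37 FPKM.

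Megakaryocyte and platelet genes were higher in L_IR, with 14 of 31 tested genes called higher, 2 lower and a median of 0.85. Ppbp, the platelet basic protein chemokine (chromosome 5, 90768518 to 90770063, plus strand), was at 1.84, 1.7 and 1.71 FPKM in IR and 32.5, 34.8 and 37.7 FPKM in L_IR (3.71). All L_IR libraries were also above the Ctrl libraries, at 10.1 to 15.3 FPKM. Pf4, platelet factor 4, which lies next to Ppbp on chromosome 5, was at 4.89, 3.41 and 4.32 FPKM in IR and at 25.3, 29.1 and 23.3 FPKM in L_IR (2.37, SE 0.119, adjusted p 4.54e-06). Tubb1, the platelet tubulin, rose from 0.507 ± 0.159 to 7.68 ± 0.729 FPKM (2.53), and Thbs1, which encodes thrombospondin, from 6.06 ± 0.24 to 27.9 ± 1.19 FPKM (2.03). Itga2b, which encodes CD41, rose by 1.38. The 2 that fell were F10, coagulation factor X (-1.87), and Ptgs1, a cyclooxygenase (-1.10).

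Erythroid genes were higher in L_IR. Of 37 tested regulators and membrane proteins, 27 were called higher and none lower, with a median of 1.64, and 7 of 16 tested globin and heme synthesis genes were called higher and none lower, with a median of 0.97. Klf1, the erythroid Kruppel-like factor (chromosome 8, 84901928 to 84905291, plus strand), was at 13.7, 14.2 and 13.1 FPKM in IR and 56.8, 51.4 and 51.6 FPKM in L_IR (1.89, SE 0.0483, adjusted p 2.65e-07). Gata1, its upstream partner in erythroid and megakaryocytic cells (chromosome X, 7959260 to 7978071, minus strand), was at 7.04, 6.18 and 6.0 FPKM in IR and 26.1, 25.4 and 25 FPKM in L_IR (1.84, SE 0.0552, adjusted p 5.08e-07). Neither pair of groups overlapped, and the L_IR values lay nearer to Ctrl (49.8 to 74.9 and 36.8 to 38.8 FPKM) than to IR. Epor, the erythropoietin receptor, rose from 3.77 ± 0.30 to 17.8 ± 1.55 FPKM (1.97), and Aqp1, the water channel of red cells, from 16.3 ± 0.227 to 114 ± 2.54 FPKM (2.73, SE 0.0262, adjusted p 4.25e-09). Ermap, Blvrb and Rhd, a membrane protein, a heme-degrading reductase and a blood group antigen of red cells, rose by 2.11, 2.10 and 2.08.

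Globins were the most abundant of these transcripts. Hbb-bs, an adult beta globin (chromosome 7, 103826534 to 103828096, minus strand), was at 129.5, 126 and 122 FPKM in IR and 396, 393 and 389 FPKM in L_IR (1.64, SE 0.0272, adjusted p 4.61e-08). The L_IR libraries were 3.12-fold above IR and still under the lowest Ctrl library, at 702 FPKM. Hba-a1 and Hba-a2, the paired alpha globins, rose by 1.51 and 1.61, but their reads cannot be assigned between the copies with certainty. Alad, the second enzyme of heme synthesis, rose from 15.2 ± 0.925 to 47.4 ± 2.26 FPKM (1.58). When all 12 libraries were fitted with a term for the heart split, 13 of the 16 globin and heme genes and again 27 of the 37 erythroid genes were called higher.

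**Figure D3:**
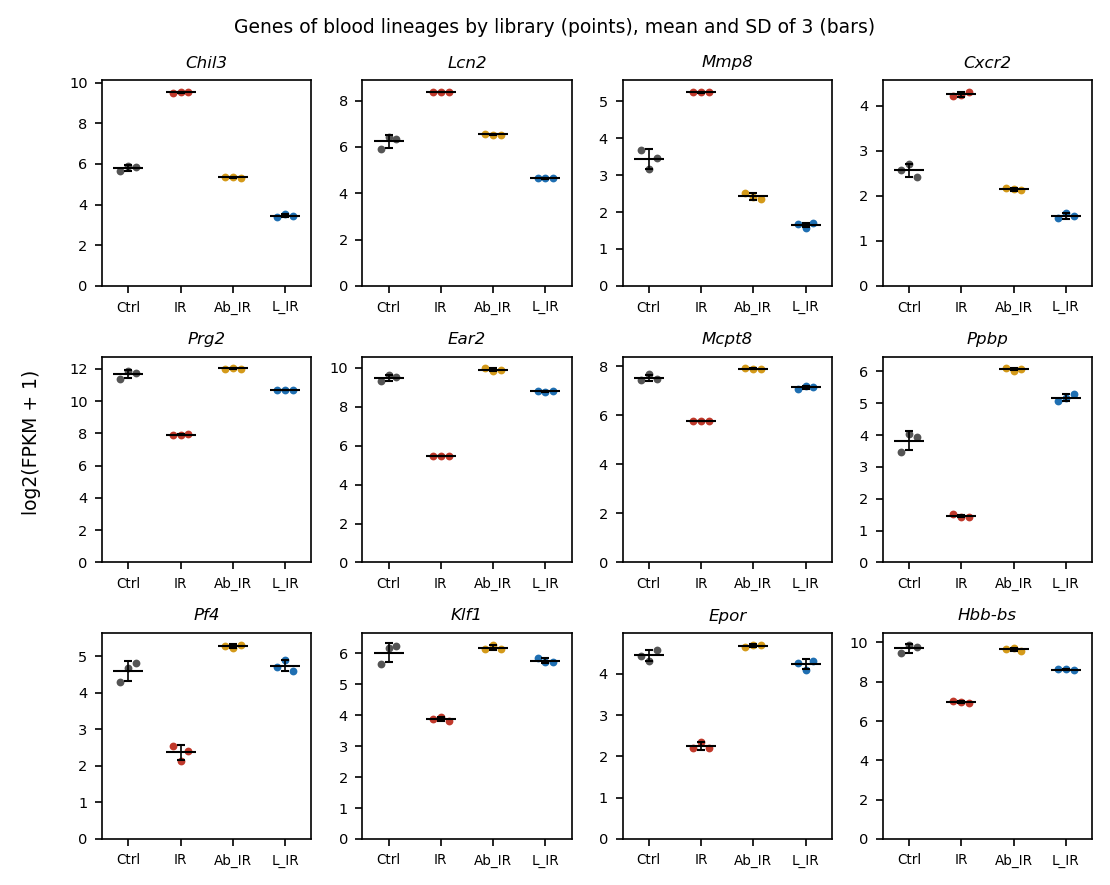
Levels of 12 lineage genes on the log2(FPKM + 1) axis in the 4 groups, 1 point per library, with the mean and SD of 3 libraries. Chil3, Lcn2, Mmp8 and Cxcr2, of late neutrophils, are highest in IR and lowest in L_IR, whereas the other 8 genes, of eosinophils, basophils, platelets and red cells, are lowest in IR, and L_IR lies below Ab_IR in each of them.

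Receptors and transcription factors of stem and progenitor cells were mixed. Among 23 tested receptors, 7 were called higher and 3 lower, and among 38 tested transcription factors 8 were called higher and 1 lower, with medians of 0.56 and 0.20. The receptors called higher include Epor, and the factors called higher include Klf1 and Gata1, all described above with the erythroid genes. Restricted to genes averaging 10 FPKM or more, both medians turned negative, at -0.18 and -0.05. Kit was at 6.92, 7.0 and 6.7 FPKM in IR and 18, 17.8 and 17.9 FPKM in L_IR, and Cd34 at 3.78, 3.91 and 3.66 FPKM in IR and 15.6, 16.1 and 15.8 FPKM in L_IR. Flt3, the receptor of lymphoid and dendritic progenitors, was at 1.07, 1.22 and 0.96 FPKM in IR and 6.0, 6.02 and 5.6 FPKM in L_IR. In all 3 genes the groups lay clearly apart and the Ctrl libraries were higher still. Cd27, a receptor of the tumor necrosis factor family on multipotent progenitors, rose by 1.63 (SE 0.0789, adjusted p 3.87e-06). Those that fell were Csf2rb, the shared beta chain of the interleukin 3, interleukin 5 and GM-CSF receptors (-1.53), Csf3r, the G-CSF receptor (-1.16), and Prom1 (-1.01).

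Receptors that define long-term HSCs were close to the limit of the table. Slamf1, which encodes CD150, was at 0.38, 0.33 and 0.32 FPKM in IR and 0.71, 0.86 and 0.61 FPKM in L_IR, and Procr, which encodes EPCR, at 0.52, 0.57 and 0.30 and 1.26, 1.09 and 0.92 FPKM. Both were below the filter and were not tested, although no L_IR library was as low as the highest IR library. Ly6a was lower, with -0.35 (adjusted p 7.61e-04), and a term for the heart split turned this direction, to 0.24 (adjusted p 0.092).

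Of the transcription factors, Gfi1b, a repressor needed for red cells and platelets, was at 5.92, 4.41 and 4.86 FPKM in IR and 25.5, 23.5 and 24.1 FPKM in L_IR (2.07). Irf8, which directs monocyte and dendritic cell fate (chromosome 8, 120736358 to 120756694, plus strand), was at 7.69, 7.65 and 7.34 FPKM in IR and 32.4, 32.5 and 32.9 FPKM in L_IR (1.97, SE 0.0288, adjusted p 2.81e-08). The L_IR libraries exceeded not only IR but all Ctrl libraries, which were at 22.4 to 28 FPKM. Gata2, Sox4, Zfpm1 and Tal1 were called higher too, at 1.30, 1.30, 1.68 and 1.03. The one factor that fell was Cebpd, a CCAAT/enhancer-binding protein of myeloid cells (-1.11).

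Interferon-stimulated genes were higher in L_IR as a group. Of 71 tested, 28 were called higher and 4 lower, against 4.1% and 1.91% of all genes. At an adjusted p under 0.05, 57 were higher, against 40.8% of all genes, and the median was 0.73. Of the 25 averaging 10 FPKM or more, 6 were called higher and 3 lower. Rsad2, which encodes the antiviral enzyme viperin (chromosome 12, 26442746 to 26456452, minus strand), was at 0.33, 2.64 and 2.4 FPKM in IR and 12.6, 12.8 and 12.8 FPKM in L_IR (2.43, SE 0.361, adjusted p 8.84e-04). Ifit3, an antiviral RNA-binding protein family member, was at 0.66, 2.59 and 3.75 FPKM in IR and 14, 15 and 16.5 FPKM in L_IR (2.40, SE 0.352, adjusted p 8.33e-04). IR replicate 1 was the lowest in both genes, the L_IR libraries agreed within a narrow range, and the groups did not overlap. With any 1 library left out, 27 to 29 of the 71 genes were called higher. Isg15, a ubiquitin-like modifier, rose from 4.04 ± 1.55 to 14.4 ± 2.97 FPKM (1.65), Irf7, the amplifier of the type I response, from 3.13 ± 0.835 to 11.8 ± 1.82 FPKM (1.64), and Ifit1 from 1.3 ± 0.697 to 6.52 ± 0.0416 FPKM (1.76). These 3 were named after their values were seen.

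Not all interferon-responsive genes followed. Ifitm1, a transmembrane antiviral factor that is also expressed constitutively in myeloid cells, was at 121, 125 and 128 FPKM in IR and 25.7, 26.2 and 28 FPKM in L_IR (-2.19, SE 0.0384, adjusted p 5.73e-08), and Slfn4, Ifitm3 and Slfn1 fell as well, with -1.57, -1.21 and -1.04. In IR, Ifitm1 was more abundant than any gene of the list that rose. The summed level of the list overlapped between the groups, at 1404 to 1447 FPKM in L_IR and 1426 to 1483 FPKM in IR. Ccl5, a chemokine on this list and on that of T and NK cells, was at 11.1, 14.7 and 17 FPKM in IR and 55.6, 56.9 and 56.1 FPKM in L_IR (1.92).

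The interferon-induced GTPases moved in 1 direction. All 15 tested had an adjusted p under 0.05 as higher in L_IR, against 40.8% of all genes tested, 3 of them were called, and the median was 0.78. Gbp2, a guanylate-binding protein of the defense against intracellular pathogens (chromosome 3, 142620602 to 142638008, plus strand), was at 4.56, 5.3 and 4.9 FPKM in IR and 16.6, 17.6 and 18.1 FPKM in L_IR (1.64, SE 0.0554, adjusted p 8.13e-07). Tgtp1 and Tgtp2, a pair of closely related GTPases on chromosome 11, rose by 1.33 and 1.26. A term for the heart split took Tgtp1 and Tgtp2 under the fold change threshold, at 0.91 and 0.62.

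The response element itself can be read in the promoters of these genes. Its core, GAAANNGAAA, was searched on both strands in the RefSeq promoters of GRCm38.p6, from 250 bases before to 50 bases after the start of each gene, and overlapping cores were counted. Of 27025 genes with a promoter in the table, 3.99% held it in any of their promoters, as did 4.05% of the tested genes found there. The share was 9.48% for genes called higher in L_IR (31 of 327 matched) and 5.92% for genes called lower (10 of 169). Of those 31 genes, 11 were on the interferon-stimulated list. In that list, the share was 52.4% for genes called higher (11 of 21) and 50% for those tested and not called higher (17 of 34). In the GTPase list it was 90.9% (10 of 11). To show the element in place, the 120 bases upstream of the start follow for all 7 called genes of both lists that had a single start in RefSeq and a core in this window. They run 5′ to 3′ on the strand of the gene, with the core in capitals on whichever strand it was found, and coordinates are on GRCm38.p6.
Rsad2 (chr12:26456453-26456572, minus strand): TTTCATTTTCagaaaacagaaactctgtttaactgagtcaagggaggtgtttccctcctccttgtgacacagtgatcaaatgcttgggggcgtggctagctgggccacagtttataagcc
Ifit1 (chr19:34640769-34640888, plus strand): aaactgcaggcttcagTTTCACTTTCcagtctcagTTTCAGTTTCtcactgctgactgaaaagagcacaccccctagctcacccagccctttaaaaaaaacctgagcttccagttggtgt
Isg15 (chr4:156200819-156200938, minus strand): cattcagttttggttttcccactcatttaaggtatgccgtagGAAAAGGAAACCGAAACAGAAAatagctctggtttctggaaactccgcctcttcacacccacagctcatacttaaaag
Gbp2 (chr3:142620543-142620662, plus strand): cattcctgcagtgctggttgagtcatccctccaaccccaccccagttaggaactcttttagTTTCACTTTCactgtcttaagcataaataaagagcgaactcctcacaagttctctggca
Phf11b (chr14:59341331-59341450, minus strand): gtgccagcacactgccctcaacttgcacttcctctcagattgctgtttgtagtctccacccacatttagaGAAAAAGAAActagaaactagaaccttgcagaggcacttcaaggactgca
Tgtp1 (chr11:48992247-48992366, minus strand): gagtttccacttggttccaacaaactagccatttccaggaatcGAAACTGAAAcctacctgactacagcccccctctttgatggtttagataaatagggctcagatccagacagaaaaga
Tgtp2 (chr11:49064213-49064332, minus strand): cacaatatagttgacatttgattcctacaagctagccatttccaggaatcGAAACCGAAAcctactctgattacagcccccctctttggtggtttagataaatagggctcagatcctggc
The core lay 41 to 111 bases before the start in these genes, Isg15 held 3 overlapping cores and Ifit1 held 2 separate ones. Starts differed between RefSeq and the GENCODE models used for positions, so the windows of Ifit1, Gbp2 and Phf11b overlap the GENCODE model of their gene in part and that of Tgtp1 lies wholly within it.

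Antigen presentation genes were higher as well. In the MHC class I and immunoproteasome list, 3 of 22 tested genes were called higher and none lower, with a median of 0.52, and in the class II list 4 of 11 were called higher and none lower, with a median of 0.89. H2-Aa, the alpha chain of the class II molecule I-A (chromosome 17, 34282744 to 34287823, minus strand), was at 2.47, 3.12 and 3.46 FPKM in IR and 11.7, 13 and 11.5 FPKM in L_IR (1.71, SE 0.0966, adjusted p 7.77e-06). H2-Eb1, H2-DMa and H2-Ab1 rose by 1.52, 1.44 and 1.25. In L_IR, H2-Eb1 and H2-DMa were above every Ctrl library, whereas H2-Aa and H2-Ab1 overlapped with Ctrl. A term for the heart split raised the calls in both lists to 7 higher and none lower. The class I genes called were the nonclassical H2-Q6, H2-Q7 and H2-Q4, which resemble each other in sequence. Scaling by the median log2 ratio took H2-Q7 and H2-Q4 under the fold change threshold, at 0.99 and 0.97. H2-Q6 was at 15.8, 17.2 and 16 FPKM in IR and 41, 38.8 and 37.1 FPKM in L_IR, both far below Ctrl (93.8 to 96.5 FPKM).

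**Figure D4:**
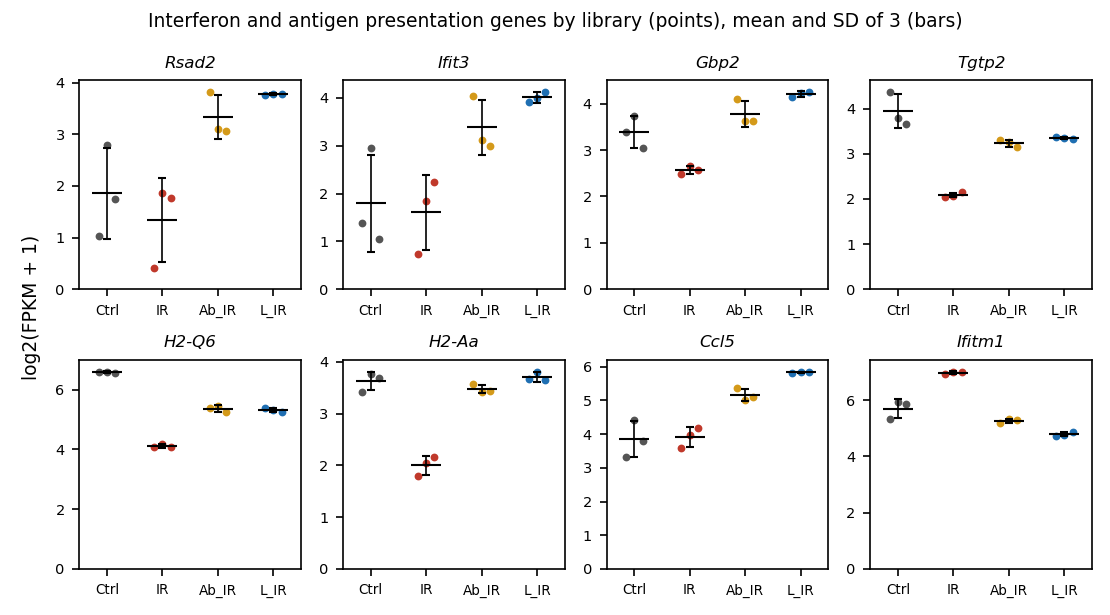
Levels of 8 interferon and antigen presentation genes on the log2(FPKM + 1) axis in the 4 groups, 1 point per library, with the mean and SD of 3 libraries. Ifitm1 is lowest in L_IR, the other 7 genes are higher in L_IR than in every IR library, and Rsad2 and Ifit3 are spread widely within Ctrl, IR and Ab_IR but not within L_IR.

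T and NK cell, monocyte and dendritic cell transcripts were higher in L_IR. T and NK cell genes had 12 of 30 tested called higher and none lower, with a median of 0.83. Trac, the constant region of the T cell receptor alpha chain, rose from 2.46 ± 0.357 to 10.3 ± 0.538 FPKM (1.71), Trbc2 from 6.23 ± 0.601 to 18.7 ± 1.36 FPKM (1.44), and Cd8b1 from 0.453 ± 0.227 to 2.84 ± 0.172 FPKM (1.41). Monocyte and dendritic cell genes had 9 of 24 called higher and 1 lower (median 0.87, and 8 to 11 called higher with any 1 library left out on the unchanged set of genes), and marrow macrophage genes 2 of 19 higher and none lower (median 0.37). Cd209a, a dendritic cell lectin, was at 0.13 to 0.26 FPKM in IR and 3.27 to 4.13 FPKM in L_IR. Ly6c1 rose by 1.75, and Fn1, which encodes fibronectin, was the one called lower (-1.02), although no gene of the list was without L_IR replicate 2. Adgre1, which encodes F4/80, rose from 3.1 ± 0.542 to 11.7 ± 0.753 FPKM, and Apoe from 15, 27.8 and 29.8 to 89.5, 86.5 and 76 FPKM in the single libraries, IR replicate 1 being low. C1qa, another macrophage gene, did not pass (-0.07, adjusted p 0.430).

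B lineage and plasma cell genes were mixed. Of 19 tested B cell genes, 3 were called higher and 1 lower (median 0.47, and 7 and 2 called under a term for the heart split), and of 31 plasma cell genes 4 higher and 2 lower (median 0.21). Dntt, the terminal transferase of early lymphoid progenitors (chromosome 19, 41029275 to 41059525, plus strand), was at 0.35, 0.30 and 0.26 FPKM in IR and 4.24, 4.2 and 4.61 FPKM in L_IR (2.04, SE 0.0575, adjusted p 4.02e-07), and no L_IR library approached Ctrl, at 12.4 to 14.3 FPKM. Cd79b, a signaling chain of the B cell receptor, rose by 1.15, and Cd72, a B cell inhibitory receptor, by 1.17, which was 0.99 without IR replicate 1 and then not called. Tnfrsf17, the plasma cell receptor BCMA, rose from 3.06 ± 0.346 to 8.89 ± 0.608 FPKM, whereas Pou2af1, a B cell coactivator, fell from 42 ± 1.24 to 17.9 ± 0.398 FPKM and Creld2, a secretory chaperone, from 158 ± 4.12 to 66.7 ± 0.771 FPKM. The most abundant transcript, Igkc, the kappa light chain constant region, was at 17658, 16423 and 16622 FPKM in IR and 24121, 24333 and 24973 FPKM in L_IR, higher by 0.53 (adjusted p 4.30e-05) without passing the fold change threshold. Summed over the 31 plasma cell genes, the level was 25349.5 to 27109 FPKM in IR and 35997 to 37086 FPKM in L_IR. With immunoglobulin genes left out and the libraries rescaled, 455 genes were called higher and 225 lower, of which 455 and 221 were among the 497 and 232.

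Bone, stroma and endothelium genes were higher in L_IR for 9 of 26 tested genes and lower for 3, with a median of 0.62 that turned to -0.05 among the 4 genes averaging 10 FPKM or more. Leaving out any 1 of the L_IR libraries left 3 genes called higher, and any 1 of the IR libraries 1 called lower, because genes at 1 FPKM in only 3 libraries then missed the filter, while on the unchanged set of genes 9 were called higher and 2 to 3 lower whichever library was left out. The called members include Mmp9, which is on the late neutrophil list, and Mgp, which shared the pattern of Nppa. Col1a2, a chain of type I collagen (chromosome 6, 4504814 to 4541544, plus strand), was at 0.96, 0.98 and 0.95 FPKM in IR and 9.76, 9.81 and 10.3 FPKM in L_IR (2.48, SE 0.0416, adjusted p 4.72e-08), and at 38.1 to 43.4 FPKM in Ctrl. Bglap, the osteocalcin gene, was listed at 0.14, 0 and 0.070 FPKM in IR and 5.89, 6.44 and 3.83 FPKM in L_IR. Mmp13, a collagenase of bone, was at 0.32, 0.66 and 0.66 FPKM in IR and 3.16, 7.93 and 8.49 FPKM in L_IR, with a wide spread in L_IR. Summed over the 45 genes of this list, the level was 122 to 127 FPKM in IR, 159 to 167 FPKM in L_IR and 323 to 364 FPKM in Ctrl.

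Of 57 S phase and 69 G2/M genes tested, none was called in either direction. In the S phase list 36 were higher and 7 lower at an adjusted p under 0.05 (median 0.14), against 40.8% and 25.9% of all genes, and in the G2/M list 11 were higher and 32 lower (median -0.07). Mki67, the proliferation marker, was at 123, 121 and 119 FPKM in IR and 101, 102 and 107 FPKM in L_IR, lower, with -0.23 (adjusted p 4.10e-04). The groups did not overlap, but the size is well under the threshold. Rrm2, a subunit of ribonucleotide reductase, was lower, with -0.72, and Mcm6, a subunit of the replicative helicase, higher by 0.37. Plk1 and Aurka, mitotic kinases, were lower, with -0.59 and -0.64.

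Of 40 tested p53 target genes, 2 were called higher, close to the 4.1% of all genes, and none lower (median 0.15, which turned negative among genes averaging 10 FPKM or more). Both, the reductase Dcxr and the ephrin receptor Epha2, lay just past the threshold and lost the call under several settings, both of them without IR replicate 3 or L_IR replicate 3. Cdkn1a, the p53-induced cell cycle inhibitor p21 (chromosome 17, 29090976 to 29100727, plus strand), was at 11.4, 11.3 and 10.9 FPKM in IR and 20.5, 20.6 and 18.7 FPKM in L_IR (0.78, adjusted p 7.16e-06), which did not reach the fold change threshold. Its L_IR libraries were above all Ctrl libraries, at 11.7 to 13.1 FPKM. None of 13 tested BCL2 family genes and none of 48 tested DNA repair genes was called, with medians of -0.0019 and 0.12. Under a term for the heart split 3 BCL2 family genes were called higher, and the sign of that median changed between settings. Bcl2, the survival gene, was higher by 0.92 (adjusted p 2.64e-06), from 2.15 ± 0.0451 to 4.96 ± 0.11 FPKM, whereas the death genes Bak1 and Pmaip1, which encodes NOXA, were lower, with -0.55 and -0.59. Xrcc5, which encodes the Ku80 end-joining protein, was lower, with -0.64.

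Iron handling and ferroptosis genes were called higher in 4 of 43 cases and lower in 1, against 4.1% and 1.91% of all genes, with a median of 0.08. Tfr2, the second transferrin receptor of erythroid cells, was at 3.68, 3.16 and 3.16 FPKM in IR and 12.6, 12.6 and 12.6 FPKM in L_IR (1.66, SE 0.0533, adjusted p 6.73e-07), and Steap3, an endosomal ferrireductase, rose by 1.41. Alox12, a platelet lipoxygenase, rose from 0.22 ± 0.0361 to 2.13 ± 0.0462 FPKM (1.36), and Alox15 is the fourth. These 4 are also known from red cells, platelets or eosinophils. The gene that fell was Hspb1, a small heat shock protein that missed the filter when any 1 IR library was left out, at 1.08 to 1.9 FPKM in IR and 0.16 to 0.18 FPKM in L_IR. A term for the heart split took Hspb1 from -1.14 to -0.14 (limma adjusted p 0.634). Of the ferritin chains, Fth1 was at 169.9, 182 and 187 FPKM in IR and 309, 294 and 288 FPKM in L_IR (0.73), while Ftl1 was at 766, 818 and 802 and 695, 670.1 and 665 FPKM (-0.23, turning to 0.16 under a term for the heart split). Neither was called, and both have processed pseudogenes that can take reads. Tfrc, the transferrin receptor, was higher by 0.51, Gpx4, which detoxifies lipid peroxides, by 0.37, and Ncoa4, the ferritin receptor of autophagy, was lower, with -0.41, each with an adjusted p under 0.05 and without a call. Acsl4 did not pass (-0.03, adjusted p 0.644), and Slc7a11, at most 0.39 FPKM in these 6 libraries, was below the filter.

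Peroxide scavengers moved in both directions, with 2 of 24 called higher and 1 lower, against 4.1% and 1.91% (median 0.05, which another scaling of the libraries turned to -0.02). Prdx2, the abundant peroxiredoxin of red cells, rose from 40.1 ± 0.471 to 105 ± 0.565 FPKM, and Mgst3 from 7.06 ± 0.606 to 20.3 ± 0.921 FPKM. Gpx3, a secreted glutathione peroxidase, fell from 28.9 ± 2.54 to 6.98 ± 0.278 FPKM (-1.90), and a term for the heart split took it under the threshold, at -0.78, while 6 genes of this list were then called higher.

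The IGF1 receptor, AKT and mTOR components had 1 of 55 tested genes called higher, none lower, and a median of 0.0036 whose sign changed with the scaling. Igf1r was at 7.83, 8.16 and 8.11 FPKM in IR and 6.53, 6.02 and 6.32 FPKM in L_IR (-0.31, adjusted p 4.39e-04), and Akt1 at 81.9, 78 and 80.4 and 61.2, 62.6 and 60.9 FPKM (-0.37, adjusted p 2.17e-05). Both were lower in every L_IR library than in any IR library, without a call. Mtor did not pass (0.11, adjusted p 0.0701), and the Igf1 transcript itself was at most 0.36 FPKM. None of 40 autophagy genes was called, 12 being higher and 12 lower at an adjusted p under 0.05, with a median of 0.05 that quantile normalization turned to -0.06.

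Translation and energy genes shifted by small amounts. Of 82 cytosolic ribosomal protein genes, 70 were higher at an adjusted p under 0.05 and 2 lower, against 40.8% and 25.9% of all genes, with a median of 0.24, but only Rpl29 was called. Rpl29 was at 3.81, 3.34 and 3.44 FPKM in IR and 49, 47.5 and 47.3 FPKM in L_IR (3.43), and with 0.39 to 4.72 FPKM in Ctrl and 50.9 to 52.3 FPKM in Ab_IR it parted the groups as few genes did. It has pseudogene copies, as does Rpl30 with Rpl30-ps9 (2.73), so both values are uncertain. Respiratory chain genes had no calls among 36 of complex I and 40 of complexes II to V (medians 0.10 and 0.07), and mitochondrial ribosomal protein genes had 1 of 77 called lower, Mrpl53, whose libraries were unsteady at 16.2, 12.5 and 10.9 FPKM in IR and 2.27, 5.68 and 7.11 FPKM in L_IR. The log2 fold change of Mrpl53 was -1.32, -0.93 and no longer called without L_IR replicate 1, and 0.035 under a term for the heart split. A term for the heart split rests on Ctrl replicate 1 against Ctrl replicates 2 and 3, and the summed level of ribosomal genes was 18198 FPKM in the former and 30334 and 27639 FPKM in the latter. For complex I the sums were 618 against 1098 and 988 FPKM. With this term in the fit, 44 of the 82 ribosomal, 13 of the 36 complex I, 12 of the 40 further respiratory and 12 of the 77 mitochondrial ribosomal genes were called higher and none lower.

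Glycolysis genes were lower, with a median of -0.52 and 16 of 22 lower at an adjusted p under 0.05, against 25.9% of all genes, although 1 was called lower and 1 higher. With any 1 library left out, 1 to 3 were called lower, and with a term for the heart split 3 lower and 2 higher. Pfkfb4, which makes the activator of phosphofructokinase, fell from 11.4 ± 0.568 to 5.0 ± 0.319 FPKM (-1.05), and Pfkm, the phosphofructokinase of muscle and red cells, rose from 6.73 ± 0.148 to 19.2 ± 0.64 FPKM (1.39). Summed over 23 genes, the level was 2179 to 2189 FPKM in IR and 1546 to 1602 FPKM in L_IR, against 1332 to 1441 FPKM in Ctrl. Endoplasmic reticulum folding genes were lower in 27 of 42 cases at an adjusted p under 0.05, against the same 25.9% (median -0.33), with 2 called lower, Creld2 and the chaperone cofactor Sdf2l1 (-1.01, and -0.98 without IR replicate 2), and 1 higher, Atf3. A term for the heart split took Creld2 to -0.79 and Sdf2l1 to -0.50, both under the fold change threshold. Of 30 heat shock chaperones, 18 were lower at that level, again against 25.9% (median -0.13), and 2 called lower, Hspb1 and Hsph1, the latter at 42, 41.7 and 41.3 FPKM in IR and 18.3, 19.1 and 18.8 FPKM in L_IR.

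Of 25 tested inflammatory cytokines and chemokines, 8 were called higher and none lower (median 0.84), and 13 under a term for the heart split. They included Ppbp, Pf4, Ccl5 and Il1rn, the interleukin 1 receptor antagonist, which was at 0.60, 2.57 and 2.76 FPKM in IR and 11.1, 7.94 and 7.17 FPKM in L_IR (1.79, SE 0.334, adjusted p 0.00275). Of 30 immediate early genes, 4 were called higher and 1 lower (median 0.37). Dusp5, a phosphatase induced by ERK signaling (chromosome 19, 53529109 to 53542431, plus strand), was at 5.36, 4.7 and 4.99 FPKM in IR and 25.6, 23.9 and 24.1 FPKM in L_IR (2.09, SE 0.0496, adjusted p 1.96e-07). Tnfaip3, the NF-kappaB inhibitor A20, rose from 13 ± 0.557 to 43 ± 1.43 FPKM (1.65). Klf2, a quiescence-associated factor, fell from 68, 68.2 and 71.5 FPKM to 28.7, 25.5 and 23.6 FPKM (-1.39, SE 0.0658, adjusted p 3.55e-06), and its Ctrl libraries, at 70 to 88.7 FPKM, resembled IR rather than L_IR. Chemokine and adhesion receptors had 3 of 24 called higher and 3 lower (median 0.37). Ccr1 fell with Cxcr2 and Itgam, from 17 ± 0.692 to 3.79 ± 0.429 FPKM, while Cx3cr1, a receptor of monocytes, and Adgrg1, an adhesion receptor of stem cells, rose by 1.52 and 1.48.

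**Figure D5:**
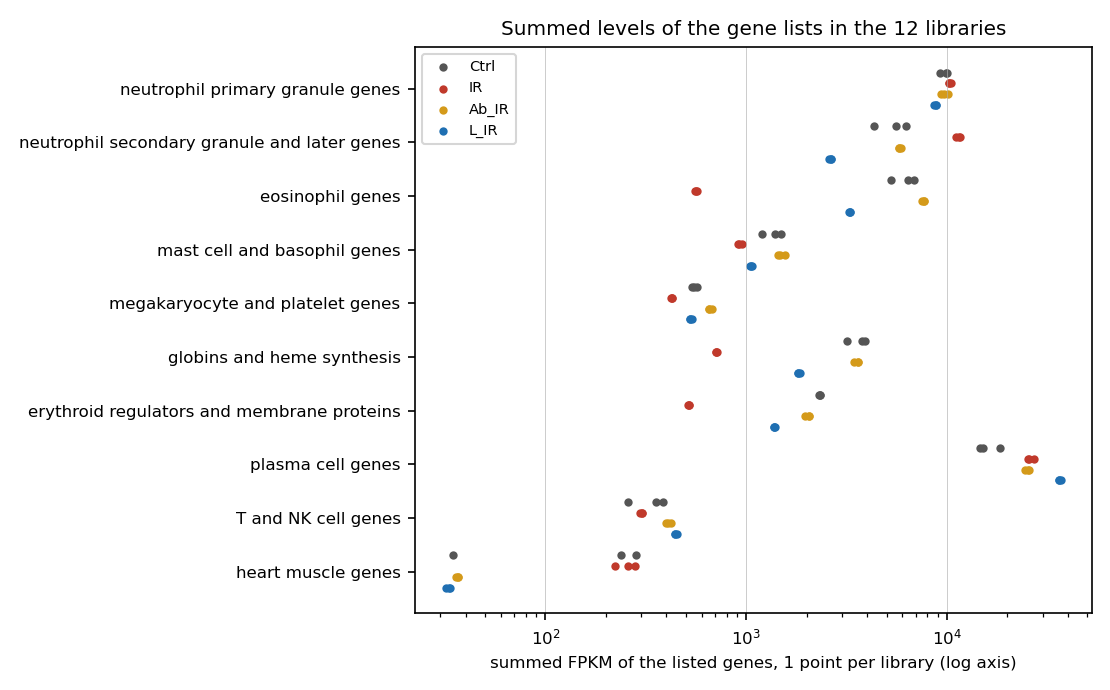
Summed FPKM of 10 gene lists in each of the 12 libraries, 1 point per library, on a log axis, with the groups in order from Ctrl at the top of each row to L_IR at the bottom. Heart muscle genes part 5 libraries from 7 at 222 to 282 against 31.9 to 36.9 FPKM, whereas late neutrophil genes run from 2574 FPKM in L_IR to 11635 FPKM in IR.

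Where L_IR differed from the other treated group was tested directly, on the 3 L_IR and 3 Ab_IR libraries, which lie on the same side of the heart transcript split. This comparison shares the L_IR libraries with the one above. Of 12184 genes, 29 were called higher in L_IR (0.238%) and 36 lower (0.295%), 16 of the 29 being immunoglobulin genes. At an adjusted p under 0.05 alone, 2408 were higher (19.8%) and 2213 lower (18.2%). With immunoglobulin genes removed and the libraries rescaled, the median of all genes moved to 0.11, and 26 genes were called higher and 24 lower, of which 13 and 24 were among the 29 and 36.

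Late neutrophil genes were lower in L_IR than in Ab_IR as well, with 12 of 33 tested called lower, none higher and a median of -0.78. Ltf was at 33.2, 31.6 and 32.2 FPKM in L_IR and 165, 169 and 160.0 FPKM in Ab_IR (log2 fold change -2.31, SE 0.0374, adjusted p 4.02e-07), the largest difference of the named genes. Lcn2, Chil3, Camp, which encodes the cathelicidin, and Ngp, a neutrophil granule protein, differed by -1.89, -1.89, -1.86 and -1.82. Camp was at 105, 103 and 100.2 FPKM in L_IR and 376, 369 and 378 FPKM in Ab_IR, where the IR libraries were in between, at 257 to 269 FPKM.

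Eosinophil genes were lower in L_IR than in Ab_IR in all 13 tested cases at an adjusted p under 0.05, against 18.2% of all genes, with 6 called and a median of -0.94. Prg2 was at 4142, 4229.7 and 4156 FPKM in Ab_IR, above every L_IR library given earlier (-1.32, SE 0.0358, adjusted p 2.98e-06). Ear1 and Prg3, a second major basic protein, differed by -1.45 and -1.40. All 16 globin and heme genes were lower at an adjusted p under 0.05 (median -0.45, 3 called), and Hba-a1 was at 1077 to 1155 FPKM in Ab_IR against 486 to 514 FPKM in L_IR (-1.17). Leaving out immunoglobulin genes took Ear2, Hba-a2 and Hbb-bs under the fold change threshold, at -0.98, -0.95 and -0.88. Dntt was lower too (-1.35), with 13, 12.5 and 12.3 FPKM in Ab_IR, and so were Mmp9 (-1.48), Klf2 (-1.29) and the erythroid carbonic anhydrase Car1 (-1.24).

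In the other direction, plasma cell and T and NK cell transcripts were higher in L_IR than in Ab_IR by small amounts. Of 31 plasma cell genes 24, and of 30 T and NK cell genes 26, were higher at an adjusted p under 0.05, against 19.8% of all genes (medians 0.49 and 0.49), with none called. B cell genes were mixed, with 7 of 21 higher and 6 lower at that level, against 19.8% and 18.2%, 1 of them called lower, and a median of 0.08. Jchain, which joins polymeric immunoglobulins, was at 1259, 1287 and 1280.1 FPKM in L_IR and 1008, 919 and 934 FPKM in Ab_IR (0.42). Cytosolic ribosomal protein genes were lower in 60 of 82 cases, against 18.2% (median -0.28), and interferon-stimulated genes had no calls and a median of 0.05 whose sign changed between settings. The one gene named for the size of its rise was mt-Tk, a mitochondrial lysine tRNA, at 26, 23.7 and 28.6 FPKM in L_IR and 11.8, 11.4 and 11.9 FPKM in Ab_IR (1.09, SE 0.066, adjusted p 5.46e-05), and tRNAs are short and not expected to be captured evenly by poly(A) selection.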

How the data were processed

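RNA was measured by poly(A) RNA-seq of sorted mouse bone marrow cells. The authors trimmed reads with fastp, and the submitters' processing notes name HISAT2 and StringTie with the build GRCm38 (mm10), whereas the study's methods name RSEM for expression. Versions are not given in the labels. The 12 deposited files, 1 per library, hold a value per gene and name no unit. The values were taken as FPKM made by the authors, since their sums are too low for CPM or TPM and, multiplied by gene length in kilobases, they sum to 913577 to 945263 per library. This reading was not stated by any source used here. No counts were used, so depth is unknown and no counting interval is given.

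From these values, log2(FPKM + 1) was modelled in R 4.3.3 with limma 3.58.1 (empirical Bayes variances with a mean trend), two-sided, for L_IR against IR and for L_IR against Ab_IR, with Benjamini-Hochberg adjustment over all genes reaching 1 FPKM in 3 or more of the 6 libraries. DESeq2, which the authors used, needs counts and was not applied, but the thresholds of the study were kept. Heart muscle genes stayed in the fits and were left out of counts of calls. Lists were described by counts and medians, without set tests. When 200 genes were shifted by a log2 fold of 1.5 in simulated data, 97% to 99.5% were recovered for L_IR against IR in 10 runs over 12163 genes, with at most 2 other genes called. This shift lay above the threshold, and noise was drawn independently for each gene at its spread between libraries. The simulation therefore does not bear on the heart split or on libraries that may be technical replicates.

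The members, lists and naming rule were chosen with earlier results of these data known. The rule named the 10 largest rises and falls (5 and 5 against Ab_IR) with a mean of at least 10 FPKM, up to 4 called members of each list (3 by adjusted p where none was called) and a panel of 20 genes. All other genes named in the text were chosen after their values were seen. Some genes that met the rule are not reported here. Positions are those of GENCODE M21 on GRCm38, matched by name for 96.7% of gene names. Strand was not stated for the quantification, so overlapping and antisense genes may share reads. Replicate numbers did not pair the samples, as same-numbered L_IR and IR libraries had correlations of their deviations of 0.0382, 0.0382 and -0.0816. Figures were drawn with matplotlib 3.10.9.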

Additional observations from a re-analysis of the deposited data

Results flagged for a closer look

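The direct test between the treated groups, L_IR against Ab_IR in limma with Benjamini-Hochberg adjustment, found 29 genes higher and 36 lower in L_IR, and these differences between groups drew attention. The mitochondrial tRNA mt-Tk was higher by 1.09 on the log2 scale. The neutrophil granule genes Ltf, Lcn2, Chil3, Camp and Ngp were lower, with log2 fold changes of -2.31, -1.89, -1.89, -1.86 and -1.82. The 3 libraries of each group did not overlap for any of these genes. Groups of 3 were too small to look for single libraries far from the rest.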

How the results depend on the processing

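For L_IR against IR (497 genes higher, 232 lower), a pseudocount of 0.1 gave 926 higher, a mean of at least 10 FPKM 158 higher and 118 lower, a term for the heart split 1207 higher, of which 399 were shared with the 497, and no fold change threshold 4952 and 3136. For L_IR against Ab_IR (29 and 36), the same settings gave 103 and 61 (pseudocount), 14 higher (mean of at least 10 FPKM) and 2408 and 2213 (no threshold). Fewer genes were tested under the mean filter, and otherwise the cause was not tested.

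Leaving out each library in turn, with the filter applied again, gave 386 to 503 higher and 182 to 243 lower genes against IR. Against Ab_IR it gave 24 to 38 higher and 31 to 42 lower. With the replicate number as a block, 498 and 231 genes were called against IR, and 29 and 37 against Ab_IR, although the numbers did not pair the samples.

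Among named genes, a term for the heart split turned Ly6a to 0.24, Ftl1 to 0.16, Gabarapl1 to -0.24 and Mrpl53 to 0.035 (limma adjusted p 0.092, 0.0723, 0.0265 and 0.965). Without immunoglobulin genes, Cd34 turned to 0.00095 (adjusted p 0.991) against Ab_IR. Calls were lost under some setting in 14 of 135 named genes against IR and in 3 of 126 against Ab_IR, and gained in 4 and 3. The sign of the median changed under some setting in 9 of 39 lists against IR and in 19 against Ab_IR. Without counts, the precision of low genes could not be computed.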
